A study of Homo sapiens with 12 samples.

Results

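The RAB genes encode a family of small GTPases, and the members here are the genes that carried a RIP-seq peak under a symbol made of RAB, a number and at most a letter and a further digit. By this rule, 44 RAB genes carried a peak in at least 1 of 6 peak lists, of 62 protein coding RAB genes in the annotation and of 10725 protein coding genes with a peak. RNA immunoprecipitation sequencing (RIP-seq) pulls a protein down with an antibody and sequences the RNA that comes with it, and each list compares such a pull-down with input RNA. The 12 samples came from the HepG2 liver cancer line, as 2 RIP replicates each of METTL16, eIF3a and eIF3b and 6 inputs, which entered only through the peak calling. The labels give 1 growth medium and no drug for all cells, and stable lines carried 3XFlag-tagged METTL16, eIF3a or eIF3b, so the proteins were overexpressed. METTL16 is an RNA methyltransferase, and eIF3a and eIF3b are subunits of a translation initiation factor. The labels name a Flag antibody for METTL16 and eIF3b and an antibody to eIF3a itself for eIF3a, whereas the names of all 6 lists say flag, so antibody and protein cannot be told apart for eIF3a. Whether the replicates came from separate cultures is not stated in the labels. Among liver markers checked in the lists, SERPINA1 and HNF4A carried a peak in all 6 lists, APOA1 and APOB in 5, AFP in 2, ALB in 1 and TTR in 0, which describes enrichment over input and not expression.

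RAB proteins switch between a GDP-bound state in the cytosol and a GTP-bound state on membranes, where they recruit effectors that move, tether and fuse vesicles. Exchange factors load GTP, GTPase activating proteins end the active state, and a pair of C-terminal lipid anchors, added to cysteines by the geranylgeranyl transferase, holds the protein on its membrane. Each organelle of the secretory and endocytic routes carries its own RABs, for example RAB1 between the endoplasmic reticulum and the Golgi, RAB5 on early endosomes, RAB7A on late endosomes and RAB11 on recycling endosomes.

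RAB transcripts pair a short coding sequence with a long 3′ UTR. Among the 44 RAB genes with a peak, the median coding sequence of the canonical transcript was 648 bases, with a range of 585 to 1023 bases, against a median of 1485 bases in the 10681 other genes with a peak. The median 3′ UTR was 2218 bases, against 1354 bases in those other genes. The 3′ UTR was longer than the coding sequence in 39 of the 44 RAB genes (88.6%) and in 44.9% of the other genes. The 3′ UTR varied far more than the coding sequence among the members, from 348 bases in RAB32 to 14613 bases in RAB21.

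At the 3′ end of the coding sequence, RAB transcripts encode the cysteines that receive the lipid anchors, and all 44 members with a peak encoded at least 1 cysteine among the last 5 residues. Peaks that crossed the stop codon numbered 61 of the 327 RAB peaks, and the same share in other genes is not given here. In 5 members they did so in at least 5 lists, so the last 30 coding bases of these transcripts lay at least in part under most of the lists' peaks. These stretches of the reference genome (GRCh38) are shown with the stop codon at the end and the cysteine codons in capitals, at chr3:128813393-128813422 on the plus strand for RAB7A, chr17:42125783-42125812 on the minus strand for RAB5C, chr14:64948354-64948383 on the minus strand for RAB15, chr1:153982099-153982128 on the minus strand for RAB13 and chr19:8403529-8403558 on the plus strand for RAB11B.
RAB7A: aaggcctcggcagaaagcTGCagtTGCtga
RAB5C: gccagccggagccagTGCTGCagcaactga
RAB15: gcgaactcttcgaaaaccTGCtggTGCtga
RAB13: aagaacaccaacaagTGCtccctgggctga
RAB11B: aacaagctgcagTGCTGCcagaacctgtga
RAB7A and RAB15 encode their cysteines with 1 residue between them, RAB5C and RAB11B encode adjacent cysteines, and RAB13 encodes a single cysteine. Each stretch lies in a single coding exon.

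Close paralogues encode nearly the same protein with different bases. The coding bases of the GTP-binding loop near the N terminus are shown for the RAB1, RAB5 and RAB11 groups, in which this loop has the same residues within each group, with G or C at the end of a codon in capitals. They lie in 1 coding exon each, on GRCh38 at chr2:65104755-65104778 (minus strand) for RAB1A, chr11:66271825-66271848 (plus) for RAB1B, chr3:19950977-19951000 (plus) for RAB5A, chr12:55987039-55987062 (plus) for RAB5B, chr17:42130398-42130421 (minus) for RAB5C, chr15:65877343-65877366 (plus) for RAB11A and chr19:8399874-8399897 (plus) for RAB11B.
RAB1A: ggCgaCtcaggGgttggaaaGtct
RAB1B: ggCgaCtcaggCgtGggCaaGtca
RAB5A: ggagaGtcCgctgttggCaaatca
RAB5B: ggagaatctgcagtGggaaaGtca
RAB5C: ggGgaGtctgcGgtaggCaaatcC
RAB11A: ggagattctggtgttggaaaGagt
RAB11B: ggGgaCtcaggCgtGggCaaGagC
RAB11A has G or C at the end of 1 of 8 codons in this loop and RAB11B at 7 of 8. Over the whole coding sequence 35.5% of codons ended in G or C in RAB11A and 87.7% in RAB11B, although the proteins were 91.3% identical.

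The share of RAB genes with a peak was above the share over all 20020 annotated protein coding genes in every list. In METTL16 replicate 1, 28 of 62 RAB genes (45.2%) carried a peak, against 28.9% of all genes. In METTL16 replicate 2 these were 25 RAB genes (40.3%) and 31.4% of all genes. eIF3a replicate 1 listed 33 RAB genes (53.2%) against 40.5%, and eIF3a replicate 2 listed 23 (37.1%) against 25.9%. The eIF3b lists held 32 RAB genes (51.6%) against 40% in replicate 1 and 34 (54.8%) against 37.5% in replicate 2. The gap between both shares was smallest in METTL16 replicate 2 and widest in eIF3b replicate 2. Neither expression level nor transcript length was matched between the RAB genes and the rest, and their part in this difference was not tested.

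Binding by a protein was called where both of its lists held a peak of the gene. By this call METTL16 bound 21 RAB genes (33.9%), against 22.9% of all genes. eIF3a bound 21 (33.9%) against 22.8%, and eIF3b bound 29 (46.8%) against 32.2%. These counts fell with stricter peak sets, and the gap to all genes depended on the filter. Among peaks of at least 4-fold enrichment, METTL16 bound 7 RAB genes (11.3% against 9.62% of all genes), eIF3a 3 (4.84% against 7.67%) and eIF3b 11 (17.7% against 13.3%), so the RAB share was then near the background for METTL16 and below it for eIF3a. With the 5000 peaks of lowest p per list, the counts were 13 (21% against 10.8%), 6 (9.68% against 8.54%) and 8 (12.9% against 11.4%). A peak in either list of a protein was found for 32 RAB genes with METTL16 (51.6% against 37.5%), 35 with eIF3a (56.5% against 43.6%) and 37 with eIF3b (59.7% against 45.3%), and eIF3a replicate 1 alone listed 33. A peak in at least 1 list was found for 44 RAB genes (71%) against 53.6%, and in all 6 lists for 14 (22.6%) against 13.6%. These 14 were RAB1A, RAB2B, RAB3D, RAB4A, RAB6A, RAB7A, RAB8A, RAB11B, RAB13, RAB15, RAB17, RAB24, RAB35 and RAB43. With 2 replicates per protein, an exact permutation test could not go below p = 0.333 (two-sided), so counts and shares are given without a test.

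**Figure D1:**
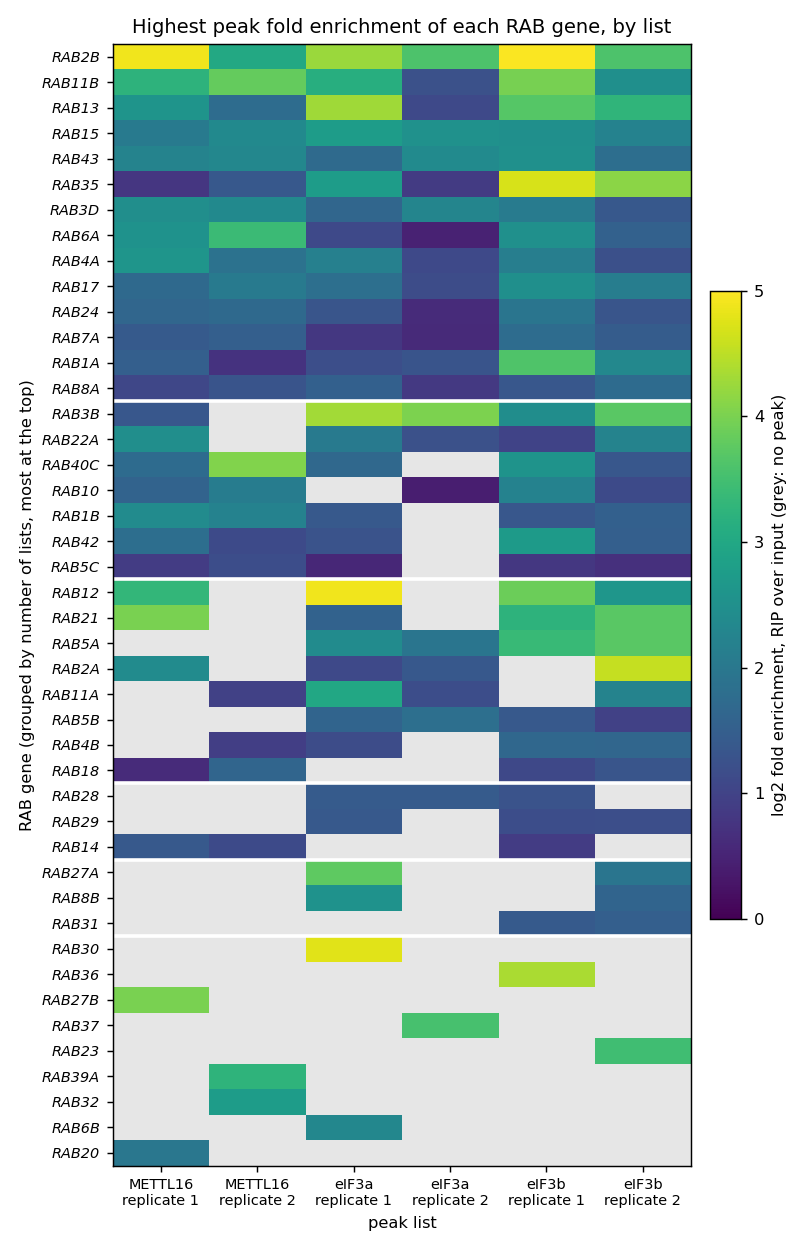
Each row is a RAB gene with a peak in at least 1 list, each column is 1 of the 6 peak lists, and the colour gives the log2 fold enrichment of RIP over input of the gene's highest peak in that list, with grey for no peak. The 14 genes at the top carried a peak in all 6 lists, and the 9 at the bottom in 1 list each.

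The 18 RAB genes without a peak in any list were RAB3A, RAB3C, RAB6C, RAB7B, RAB9A, RAB9B, RAB19, RAB25, RAB26, RAB33A, RAB33B, RAB34, RAB38, RAB39B, RAB40A, RAB40B, RAB41 and RAB44. Their median 3′ UTR was 1121.5 bases and their median coding sequence 676.5 bases. No list gives a level for a gene without a peak, so low abundance in these cells and a lack of enrichment over input cannot be told apart. A further 9 members carried a peak in 1 list only, with fold enrichments between 3.97 (RAB20) and 27.3 (RAB30). By p-value, RAB30 ranked 5051 of 8166 genes in eIF3a replicate 1 and RAB20 5786 of 5829 in METTL16 replicate 1. Of these 9, only RAB32, at 2865 of 6337 genes in METTL16 replicate 2, ranked above the middle of its list.

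RAB peaks were not unusually strong for their lists. The median RAB peak was 3.08-, 3.3-, 2.96-, 2.86-, 3.84- and 2.65-fold over input in METTL16 replicates 1 and 2, eIF3a replicates 1 and 2 and eIF3b replicates 1 and 2, against 3.09-, 3.4-, 2.98-, 2.73-, 3.2- and 2.94-fold over all peaks of these lists. When genes of a list were ranked by their highest peak, the median RAB gene stood between the 26.2nd percentile in eIF3a replicate 2 and the 53.7th percentile in eIF3b replicate 1. RAB genes also held fewer peaks per gene, between 1.52 and 2.18, against 2.07 to 2.66 over all genes.

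Among the RAB genes common to the 6 lists, RAB2B, which encodes a Golgi RAB, had the highest median over the lists of the highest peak, at 15.7-fold, although RAB11B, RAB13 and RAB35 each had a higher peak in 1 list, and RAB6A also in METTL16 replicate 2. Its highest peak was 29.7- and 8.1-fold over input in METTL16 replicates 1 and 2, 19.1- and 12.2-fold in the eIF3a replicates, and 31.4- and 12.1-fold in the eIF3b replicates. Every list placed a RAB2B peak in the first part of the 3′ UTR, for example at chr14:21460245-21460932 on GRCh38 in METTL16 replicate 1, which is 264 to 951 bases past the stop codon. The 6 lists shared 450 bases there, all of them 3′ UTR, and eIF3a replicate 2 split this stretch into peaks of 6.12- and 5.21-fold. Further along, 1519 bases past the stop codon, both eIF3a lists began another RAB2B peak, of 17.4- and 12.2-fold. The log10 p-values of this peak by exomePeak were -4.03 and -3.85. The RAB2B coding sequence held no peak centre in any list.

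RAB11B and RAB13, which act in recycling and in traffic to cell junctions, carried their main peaks around the stop codon. The highest RAB11B peak was 9.34- and 14.2-fold for METTL16, 8.76- and 2.35-fold for eIF3a, and 15.8- and 5.61-fold for eIF3b. The highest RAB13 peak was 6.03- and 3.42-fold for METTL16, 19.6- and 2.14-fold for eIF3a, and 12.8- and 9.72-fold for eIF3b. In both genes eIF3a replicate 2 gave the lowest value and was the list whose peak did not reach the stop codon. RAB13 has one of the shortest 3′ UTRs, of 449 bases, and the peak covered 276 of these bases in METTL16 replicate 1 and 119 in eIF3a replicate 2. The bases common to all lists were 238 in RAB11B and 119 in RAB13, in the 3′ UTR of each.

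RAB15, which acts in endocytic recycling, and RAB43, a Golgi RAB, had their peaks at several shared places along the 3′ UTR. The highest RAB15 peak was 4.15- and 5.15-fold for METTL16, 6.83- and 5.8-fold for eIF3a, and 5.64- and 4.66-fold for eIF3b. All 6 lists covered 92 coding bases before the end of the RAB15 stop codon and 268 bases of its 3′ UTR. In RAB43 the highest peak was 4.69- and 4.99-fold for METTL16, 3.32- and 5.25-fold for eIF3a, and 5.72- and 3.49-fold for eIF3b. A far 3′ UTR peak that began 2810 or 2840 bases past the stop codon was present in all 6 lists and gave the 240 bases common to them. Of the 24 RAB43 peaks, 22 lay on exons that the annotation also gives to the readthrough gene ISY1-RAB43, so these peaks cannot be assigned to one of the transcripts.

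RAB35 and RAB3D were listed throughout with no base common to all lists, whereas RAB17 had the most common bases of the 14 genes. RAB35, which works in recycling at the plasma membrane, had its highest peak at 1.73- and 2.61-fold for METTL16, 6.82- and 1.83-fold for eIF3a, and 26.1- and 17.6-fold for eIF3b. The eIF3b values came from the far 3′ UTR, from peaks at 1610 to 1760 bases past the stop codon in replicate 1 and 1760 to 1940 in replicate 2. These peaks met only at their ends, and their log10 p-values by exomePeak were -6.06 and -3.81. In this stretch eIF3a replicate 1 also held a peak and the METTL16 lists held none. Weaker RAB35 peaks, of 1.65- to 2.81-fold, lay at the end of the coding sequence in every list but METTL16 replicate 2. RAB3D, of regulated secretion, reached 5.57- and 5.2-fold for METTL16, 3.12- and 4.82-fold for eIF3a, and 4.23- and 2.58-fold for eIF3b. RAB17, an epithelial RAB, reached 3.29- and 4.18-fold for METTL16, 3.54- and 2.24-fold for eIF3a, and 5.59- and 4.35-fold for eIF3b. Its 600 common bases lay in all regions of the transcript, with 186 in the 5′ UTR, 234 in the coding sequence and 180 in the 3′ UTR.

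Some members carried peaks near the 5′ end of the transcript. RAB4A, of fast recycling endosomes, carried a peak centred on the 5′ UTR in all 6 lists, at 6.08- and 3.71-fold for METTL16, 4.5- and 2.16-fold for eIF3a, and 4.4- and 2.34-fold for eIF3b, with 150 bases common to them. RAB6A, which acts at the Golgi, carried a 5′ UTR peak in both METTL16 lists, at 5.83- and 10.6-fold, and in both eIF3b lists, at 5.7- and 2.56-fold, whereas its eIF3a peaks lay in the 3′ UTR and reached 2.16- and 1.4-fold. RAB10, of exocytic and GLUT4 vesicle traffic, was listed 5 times, each time in the 5′ UTR and never by eIF3a replicate 1, at 3.01- and 4.3-fold for METTL16, 1.34-fold for eIF3a replicate 2, and 4.68- and 2.19-fold for eIF3b. RAB5A carried a 5′ UTR peak in both eIF3a lists, at 5.31- and 3.85-fold, and both eIF3b lists, at 10.3- and 13.2-fold. By p-value, RAB5A ranked 3477 of 8166 and 4866 of 5226 genes in the eIF3a lists. In the eIF3b lists it ranked 5288 of 8063 and 3531 of 7570. In all, 17 RAB genes had a peak centred on the 5′ UTR in some list and 9 in at least 3 lists, namely RAB1A, RAB4A, RAB5A, RAB6A, RAB10, RAB14, RAB17, RAB21 and RAB24. The same counts over all genes are not given here, so whether these numbers are high cannot be told from them. The RAB4A and RAB6A peaks also lay on exons of long non-coding genes annotated on the opposite strand, and whether the peak calling used the strand of reads is not stated in the sources used here.

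The remaining genes common to all lists were weaker or moved along the transcript. RAB7A, RAB8A and RAB24 stayed at or below 3.84-fold in every list. Of their peaks, 6 of 8 in RAB8A lay on exons of a long non-coding gene on the opposite strand and 5 of 10 in RAB24 on exons of MXD3 on the same strand. RAB1A, which works between the endoplasmic reticulum and the Golgi, reached 12.4-fold in eIF3b replicate 1 at the 5′ UTR. By p-value, however, RAB1A ranked only 6131 of 8063 genes in that list. RAB1A reached 5.03-fold in eIF3b replicate 2 in the 3′ UTR, and its peaks in the other lists stayed at or below 2.85-fold. None of RAB1A, RAB7A, RAB8A and RAB24 had a base common to all 6 lists, and neither had RAB6A or RAB35.

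**Figure D2:**
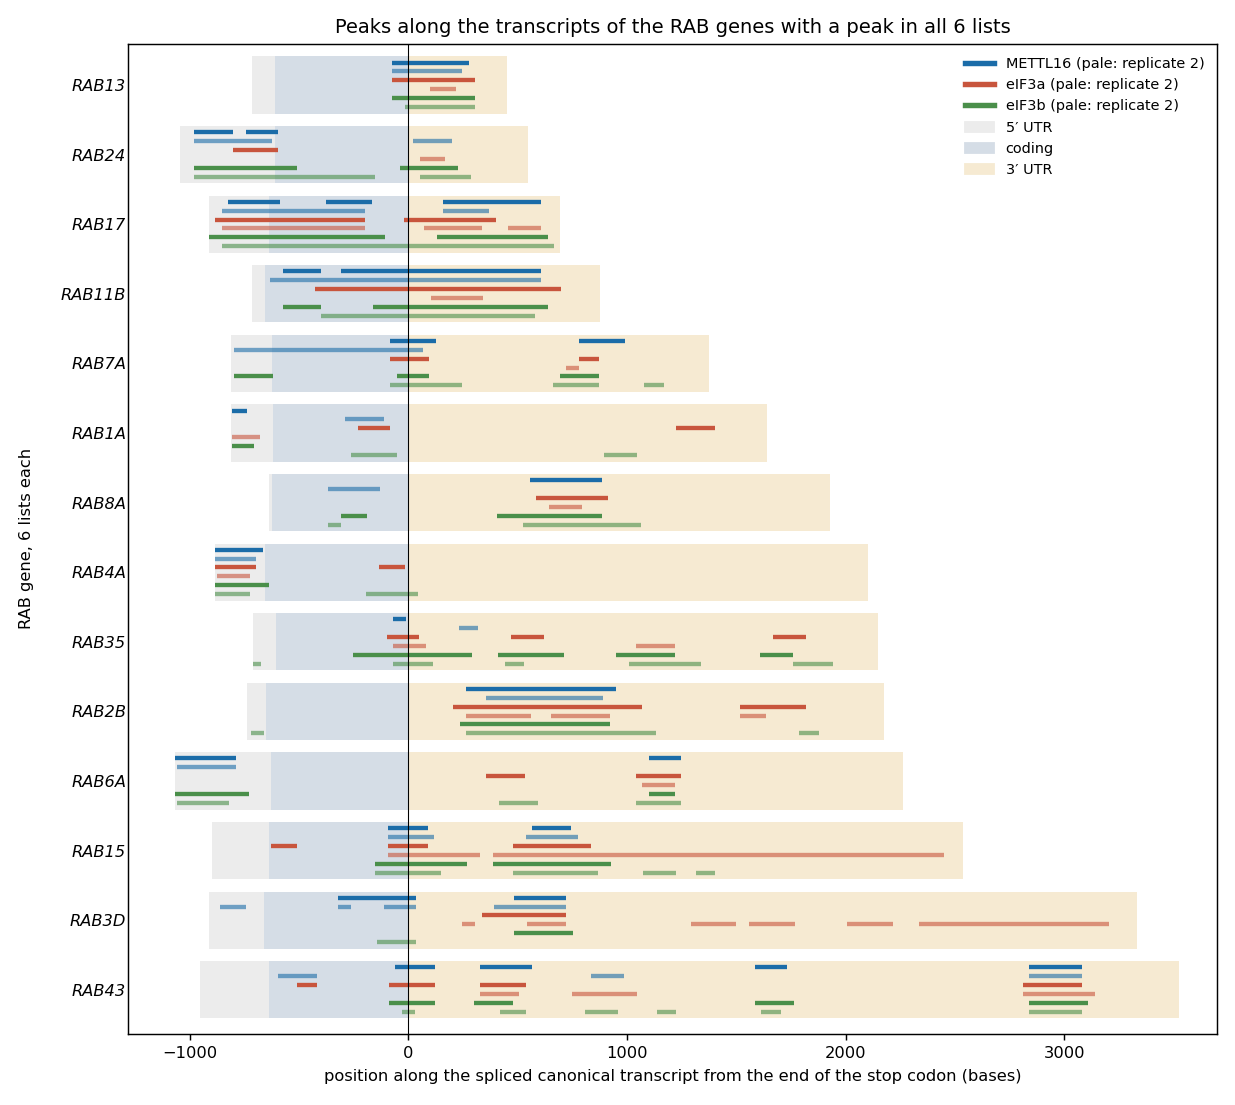
Peaks of the 14 RAB genes listed 6 times, drawn along the spliced canonical transcript with position in bases from the end of the stop codon and genes ordered by 3′ UTR length; 3 peaks that lie on another transcript of their gene are not drawn. RAB2B, RAB13 and RAB11B stack their peaks in the 3′ UTR near the stop codon and RAB4A in the 5′ UTR, whereas the RAB1A peaks lie in different places in different lists.

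By the centre of the peak, RAB peaks lay mostly in the 3′ UTR. Of 327 RAB peaks in the 6 lists, 210 were centred on the 3′ UTR, 72 on the coding sequence and 45 on the 5′ UTR. The coding sequence held 9 of 44 RAB peaks (20.5%, 95% Wilson interval 11.2 to 34.5) in METTL16 replicate 1 and 17 of 38 (44.7%, 30.1 to 60.3) in METTL16 replicate 2. It held 16 of 69 (23.2%, 14.8 to 34.4) in eIF3a replicate 1 and 2 of 49 (4.08%, 1.13 to 13.7) in eIF3a replicate 2. In the eIF3b replicates it held 11 of 53 (20.8%, 12 to 33.5) and 17 of 74 (23%, 14.9 to 33.7). The intervals cover counting error only and treat peaks of 1 transcript as separate. In the other genes of the same lists, between 57.0% and 68.8% of the peaks were centred on the coding sequence, so every RAB share was below every share of the other genes.

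Over the replicates, the mean coding share was 32.6% ± 17.2 (SD, n = 2) in METTL16 lists, 13.6% ± 13.5 in eIF3a lists and 21.9% ± 1.57 in eIF3b lists. The replicates of METTL16 and those of eIF3a each lay further apart than any pair of these means, so the differences in coding share between proteins were within the spread between replicates. The 3′ UTR held 46.8% ± 14.1, 79.4% ± 11.8 and 61.7% ± 4.51 of the RAB peaks (SD, n = 2 each), against 27.9% ± 5.51, 38.1% ± 0.277 and 33.1% ± 4.10 in the other genes. For this share the RAB replicates of different proteins did not overlap, with 56.8% and 36.8% for METTL16, 58.5% and 64.9% for eIF3b and 71.0% and 87.8% for eIF3a. The gap between the METTL16 and eIF3b values was smaller than the gap between the METTL16 replicates. In the 5′ UTR the METTL16 lists held 20.6% ± 3.04 of the RAB peaks, the eIF3a lists 6.98% ± 1.67 and the eIF3b lists 16.5% ± 6.08 (SD, n = 2), so METTL16 and eIF3a did not overlap there either. This rests on 10 and 7 RAB peaks for METTL16 and 4 in each eIF3a list. The other genes showed no overlap either, with 6.99% and 7.20% for METTL16 and 5.00% and 3.28% for eIF3a. Antibody and protein cannot be told apart in a comparison with eIF3a, and these differences were not tested.

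The exons of the RAB genes with a peak were themselves mostly 3′ UTR. The coding sequence made up between 16.5% and 23.9% of their exon bases per list and the 3′ UTR between 68.9% and 78.3%, whereas the other genes had 46.5% to 48.7% coding and 46.5% to 48.8% 3′ UTR bases. In 5 of the 6 lists the coding share of RAB peaks was above the coding share of RAB exon bases. The exception was eIF3a replicate 2, with 4.08% of peaks (Wilson interval 1.13 to 13.7) against 17.6% of exon bases. Of the 5 lists, only METTL16 replicate 2 had an interval (30.1 to 60.3) above its exon share, of 23.9%. In the remaining lists the interval held the exon share, so an excess was not resolved there. In the other genes the coding share was higher among peaks in every list, at 57.0% to 68.8% against 46.5% to 48.7% of exon bases. The 5′ UTR held 5.22% to 7.18% of the RAB exon bases and 22.7% and 18.4% of the RAB peaks in the METTL16 lists, 5.80% and 8.16% in the eIF3a lists, and 20.8% and 12.2% in the eIF3b lists. The corresponding 5′ UTR shares of peaks in the other genes were 6.99% and 7.20%, 5.00% and 3.28%, and 8.49% and 6.09%.

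**Figure D3:**
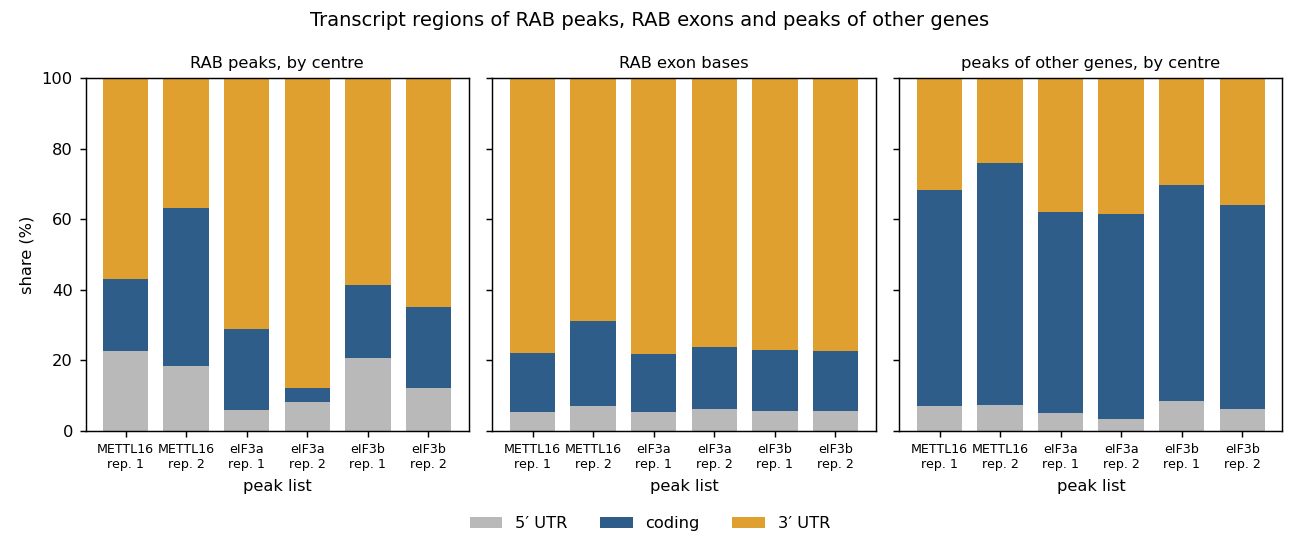
Shares of the 5′ UTR, coding sequence and 3′ UTR in percent, per list, for the centres of RAB peaks, for the exon bases of the RAB genes with a peak in that list and for the centres of the peaks of other genes. The coding share of RAB peaks was below that of the peaks of other genes in each list, from 4.08% in eIF3a replicate 2 to 44.7% in METTL16 replicate 2.

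A measure per available base was the share of coding bases under a peak divided by the share of 3′ UTR bases under a peak, summed over the RAB genes of the list. In METTL16 replicate 1, peaks covered 12.6% of the coding and 6.83% of the 3′ UTR bases of the RAB genes listed, a ratio of 1.85, and in replicate 2 they covered 30.5% and 8.98%, a ratio of 3.40. In the eIF3a lists the ratio was 1.46 in replicate 1, from 15.4% and 10.5%, and 0.189 in replicate 2, from 5.34% and 28.2%. In the eIF3b lists it was 1.69 and 1.91. The other genes gave 2.04, 3.04, 1.80, 1.92, 2.43 and 1.98 in the same order of lists. RAB coding bases were therefore more often under a peak than RAB 3′ UTR bases in 5 lists, with ratios of the same order as in other genes, and less often in eIF3a replicate 2. For eIF3b this depended on how peaks were admitted. The mean ratio was 1.80 with all peaks, 1.47 with peaks of at least 4-fold enrichment and 0.991 with the 5000 peaks of lowest p per list. For eIF3a, peaks of at least 4-fold enrichment gave a mean ratio of 0.416 and a mean coding share of 2.63%. The mean ratio was 2.62 ± 1.10 in METTL16 lists, 0.824 ± 0.897 in eIF3a lists and 1.80 ± 0.155 in eIF3b lists (SD, n = 2), against 2.54 ± 0.710, 1.86 ± 0.0909 and 2.20 ± 0.314 in the other genes.

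The low ratio in eIF3a replicate 2 moved with the long 3′ UTR of RAB3B, a RAB of regulated secretion. RAB3B has a 3′ UTR of 11971 bases, and eIF3a replicate 2 covered 77.9% of it with 12 peaks, each at least 2.86-fold over input, one of which ran from 7929 to 11851 bases past the stop codon. eIF3a replicate 1 covered 10.5% of it, METTL16 replicate 1 1.26%, METTL16 replicate 2 none, and the eIF3b lists 2.26% and 2.52%. RAB3B alone made up 52.2% of the RAB 3′ UTR bases under peaks in eIF3a replicate 2. Without RAB3B the ratio in this list was 0.337 and the coding share of RAB peaks 2 of 37 (5.41%), still the lowest of the 6 lists, whereas the ratios of the other lists were 1.49 to 3.40. RAB3D, a paralogue, held 6 of the 43 peaks centred on the 3′ UTR in the same list. In eIF3a replicate 2, 15 of 23 RAB genes (65.2%) had 3′ UTR bases but no coding bases under a peak, against 21.3% of the other genes. In the other lists this share was 12% to 42.4% of the RAB genes and 9.58% to 19.2% of the other genes.

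**Figure D4:**
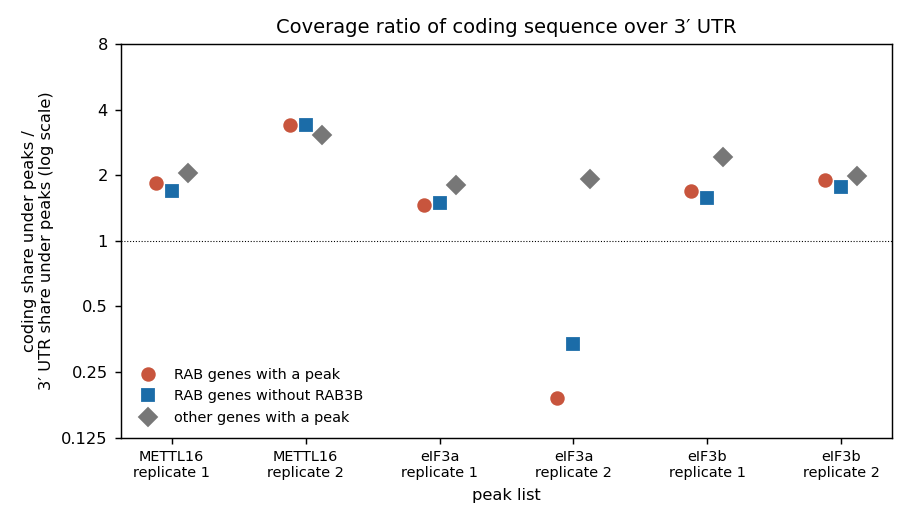
The share of coding bases under peaks divided by the share of 3′ UTR bases under peaks is plotted on a log scale for each list, for the RAB genes, for the RAB genes without RAB3B and for the other genes with a peak. The RAB points lie between 1.46 and 3.40 in 5 lists and at 0.189 in eIF3a replicate 2, where leaving out RAB3B gives 0.337.

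In the eIF3a and eIF3b lists, members with a longer 3′ UTR had a smaller share of peaks centred on the coding sequence. A longer 3′ UTR also lowers the coding share of exon bases, and the shares below were not adjusted for this. RAB3B alone held 12 of the 31 peaks of the longer class in eIF3a replicate 2 and 8 of the 36 in replicate 1. The 44 members were divided at their median 3′ UTR of 2218 bases. For eIF3a, the longer class had 13.9% and 0% of its peaks centred on the coding sequence in replicates 1 and 2, against 33.3% and 11.1% in the shorter class. For eIF3b these shares were 13.6% and 18.4% (3 of 22 and 7 of 38 peaks) against 25.8% and 27.8% (8 of 31 and 10 of 36). For METTL16 they were 21.1% and 40% against 20% and 47.8%, with the direction differing between replicates. The 5 longest 3′ UTRs were those of RAB21, RAB3B, RAB30, RAB22A and RAB27B. RAB22A, of early endosomes, with 7804 bases, had 11 of its 12 peaks in the 3′ UTR, and RAB3B had 25 of 26. RAB21, also endosomal, had 3 of 8 there and carried a peak of 15.9-fold in the 5′ UTR in METTL16 replicate 1, and RAB27B had its single peak in the coding sequence and RAB30 its single peak in the 3′ UTR. Among the 5 shortest, RAB13 had all 6 peaks centred on the 3′ UTR, RAB4B had 4 of 5 in the coding sequence and RAB24 had 4 of 10 in the 3′ UTR, whereas the single RAB32 peak was coding and the single RAB20 peak was in the 5′ UTR.

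Where the lists of a pair of proteins did not overlap, few RAB genes were involved and the shares were near those of all genes. RAB14 and RAB18 carried a peak in both METTL16 lists and in neither eIF3a list (3.23% of RAB genes against 2.23% of all genes). No RAB gene did so for METTL16 against eIF3b, where the share of all genes was 0.699%. RAB5A, RAB5B and RAB28 were in both eIF3a lists and in neither METTL16 list (4.84% against 3.93%), and none was in both eIF3a lists and neither eIF3b list (0.804% of all genes). RAB5A, RAB5B, RAB29 and RAB31 were in both eIF3b lists and neither METTL16 list (6.45% against 5.25%), and RAB18 and RAB31 in both eIF3b lists and neither eIF3a list (3.23% against 2.22%).

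The RAB5 paralogues of the early endosome divided between the lists. RAB5A and RAB5B carried peaks in all 4 eIF3 lists and in neither METTL16 list, whereas RAB5C carried a peak in both METTL16 lists, at 1.86- and 2.28-fold, and in 3 of the 4 eIF3 lists. RAB5B peaks reached 3.04- and 3.57-fold for eIF3a and 2.62- and 1.96-fold for eIF3b and lay from the end of the coding sequence into the 3′ UTR, while the strongest RAB5A peaks were in the 5′ UTR. Of the 6 RAB5C peaks, 4 also lay on exons of an unnamed gene annotated on the same strand. The codons ended in G or C in 30.1% of cases in RAB5A, 57.4% in RAB5B and 65.4% in RAB5C, and the proteins were 81.9% to 87.0% identical.

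Other paralogues also differed in how often they were listed. RAB11B was in all 6 lists and RAB11A in 4, where the RAB11A peaks lay in the 3′ UTR for eIF3a, at 8- and 2.27-fold, and in the coding sequence for METTL16 replicate 2, at 1.95-fold. RAB1A was in 6 lists and RAB1B in 5. RAB2B was in 6 and RAB2A in 4, RAB4A in 6 and RAB4B in 4, RAB8A in 6 and RAB8B in 2, and RAB27A in 2 and RAB27B in 1. RAB6A was in 6 lists and RAB6B, 90.9% identical in protein, in 1. RAB3D and RAB3B were in 6 and 5 lists and RAB3A and RAB3C in none, RAB40C was in 5 and RAB40A and RAB40B in none, and RAB9A and RAB9B were both in none. All 5 RAB4B peaks lay on exons shared with readthrough genes. Of the 16 pairs within these groups that differed in the number of lists, the paralogue with more codons ending in G or C had more lists in 11. Pairs of 1 group share members, and no level of these transcripts was available beside the peaks.

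By the organelle their proteins serve, RAB genes of every group were listed. Over all genes, 53.6% carried a peak in some list, and METTL16 bound 22.9%, eIF3a 22.8% and eIF3b 32.2%. Of 15 RAB genes of the endoplasmic reticulum and Golgi, 9 carried a peak in some list (60%, near the share of all genes), and METTL16, eIF3a and eIF3b each bound 5. Of 19 endosomal and lysosomal RAB genes, 15 carried a peak, and METTL16 bound 7, eIF3a 9 and eIF3b 12. Of 12 genes of exocytosis and regulated secretion, 9 carried a peak, and the proteins bound 4, 4 and 5. Of the 16 other RAB genes, 11 carried a peak, and the proteins bound 5, 3 and 7. These 16 include RAB15, although it acts in endocytic recycling, so the contrasts between groups depend on this placing. The eIF3b share was highest in the endosomal group, at 63.2%, and lowest in the Golgi group, at 33.3%. The eIF3a share ranged from 18.8% in the last group (3 of 16 genes), near that of all genes, to 47.4% in the endosomal group. Members common to all lists came from each group, with RAB2B, RAB43 and RAB6A leading in the Golgi group, RAB11B, RAB35 and RAB4A in the endosomal group, RAB13, RAB3D and RAB8A in the secretory group, and RAB15 and RAB24 in the last.

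The genes that regulate RAB proteins carried their peaks in the coding sequence more often than the RAB genes did. Of 121 regulators and effectors, 101 carried a peak in some list and 39 in all 6 (83.5% and 32.2%, against 53.6% and 13.6% of all genes). METTL16 bound 51 (42.1% against 22.9%), eIF3a 65 (53.7% against 22.8%) and eIF3b 73 (60.3% against 32.2%). The coding sequence held between 60.3% and 71.4% of their peaks per list, within or just above the range of the other genes. Of 43 exchange factors, METTL16 bound 18, eIF3a 23 and eIF3b 24, and the leading common genes were DENND6A, SBF1 and DENND4B, with median highest peaks of 30.1-, 26.1- and 8.44-fold over the 6 lists. Of 37 GTPase activating proteins they bound 17, 22 and 25, led by TBC1D16, TBC1D13 and TBC1D24 at 19-, 10.4- and 7.22-fold. Of 35 effectors they bound 15, 18 and 23, led by RILPL1, MICALL2 and RAB11FIP4 at 13.8-, 12.6- and 11.5-fold. The share bound was between 41.9% and 67.6% in these 3 groups. Of the 6 genes of prenylation and membrane extraction, METTL16 bound 1, eIF3a 2 and eIF3b 1, which is 16.7%, 33.3% and 16.7%. A single gene is 16.7% of this group, so these shares are too coarse to set against those of all genes. The coding sequence held 33.3% to 66.7% of the peaks of these 6 genes per list.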

How the data were processed

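Peak lists of 6 RIP samples of HepG2 cells were analysed. In the authors' hands, reads were aligned to GRCh38 by STAR, and exomePeak with default settings called the peaks of each RIP sample over input. Versions, annotation and the choice of input were not given in the sources used here. Per the file headers, a peak has exonic blocks, a gene name, a p-value, a score (both the p-value and its adjusted form on a log10 scale) and a fold enrichment, the ratio of RIP over input. No read counts were used, so depth is unknown.

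Gene structures came from GENCODE release 44, with the canonical transcript first and the stop codon counted as coding. Of 10830 gene names, 10325 matched a current symbol, 443 an older one and 62 none. A RAB gene listed under an older symbol outside the rule was left out. Every RAB peak had at least 50% of its bases on exons of its gene. Scripts (Python 3.11.15, pandas 2.3.3, Biopython 1.88, matplotlib 3.10.9) were tested on simulated data.

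Genes given with values were the 10 strongest common to all lists, those listed for 1 protein and not for another, paralogue groups, the 5 longest and 5 shortest 3′ UTRs and the 3 strongest genes of each regulator list, except that some results are not reported here. Members and lists were chosen with earlier results of these data known. The last coding bases of 5 genes, and other members named, were added after values were seen. Alternatives covered stricter peak sets (4-fold enrichment, 5000 peaks), other region rules and leaving out a replicate.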

Additional observations from a re-analysis of the deposited data

How the results depend on the processing

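The number of RAB genes bound depended on the peaks admitted. With peaks of at least 4-fold enrichment, METTL16 bound 7, eIF3a 3 and eIF3b 11 RAB genes (9.62%, 7.67% and 13.3% of all genes), and with the 5000 peaks of lowest p per list 13, 6 and 8, against 21, 21 and 29. A peak in either replicate gave 32 for METTL16 and 35 for eIF3a. With 1 replicate the counts were 25 to 28 for METTL16, 23 to 33 for eIF3a (33 without eIF3a replicate 2) and 32 to 34 for eIF3b. Coding shares of RAB peaks then ranged from 20.5% to 44.7% for METTL16, 4.08% to 23.2% for eIF3a and 20.8% to 23% for eIF3b, 3′ UTR shares from 36.8% to 56.8%, 71.0% to 87.8% and 58.5% to 64.9%, and coverage ratios from 1.85 to 3.40, 0.189 to 1.46 and 1.69 to 1.91. For eIF3a, the coding share was 4.08% and the ratio 0.189 without replicate 1, and 23.2% and 1.46 without replicate 2. With at least 4-fold enrichment, the 3′ UTR share was 92.1% for eIF3a and 68.0% for eIF3b, and the eIF3b coding share was 11.7% and its ratio 1.47. The eIF3b coding share was 16.6% with the highest peak per gene alone, and its ratio was 0.991 with 5000 peaks per list and 1.51 over all annotated members. The cause of these shifts was not tested, beyond the fewer peaks admitted. Of 99 alternative values, 83 stayed within 1.5 times the main count or 1 SD of the main value, an SD that rests on 2 replicates. With 2 replicates, leaving 1 out keeps a share or ratio within that SD whatever the data. Those values are among the 83 and say nothing about stability. Chosen after seeing the data, leaving out peaks with at least 50% of their bases on exons of another gene (56 peaks in 10 members) gave 16, 17 and 23 RAB genes bound, coding shares of 36.9%, 13.7% and 21.0% and ratios of 3.15, 0.864 and 1.94. Leaving out RAB3B gave ratios of 2.55, 0.912 and 1.66. No paired analysis was possible because replicate numbers do not tie samples of different proteins and no test was run. Depth is unknown, so a gene without a peak may have lacked reads.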
